A study of Homo sapiens with 6 samples.

Results

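The mRNAs of 10 amino acid transporters were followed through 6 RNA-seq libraries of HEK293T cells, a human embryonic kidney line. The genes were fixed by name, with earlier results of these data known: SLC7A11, SLC7A5, SLC3A2, SLC43A1, SLC7A1, SLC1A5, SLC1A4, SLC38A1, SLC38A2 and SLC6A9. They are 10 of the 23204 gene symbols in the deposited tables and hold 21 of the 39618 rows, where each row is a RefSeq transcript. For each gene the row with the highest mean RPKM (reads normalised to the length of the row in kilobases and to 1000000 reads of the library) over the libraries was kept.

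The siRNA arm compared control siRNA with siRNA to DDX3X after 48 h of treatment. DDX3X encodes an RNA helicase of the DEAD-box family. In the plasmid arm, cells were transfected with 5 µg of plasmid for GFP alone, GFP-tagged wild-type DDX3X, GFP-DDX3X T275M or GFP-DDX3X G302V, and GFP-positive cells were sorted at 32 h. Endogenous DDX3X was present in every plasmid group, expression from the plasmids was transient, and each of the 6 groups is 1 library. Differences between arms cannot be told apart from transfection, time and sorting. The T275M library is named by its label, although a plot legend of the study names another mutant among its RNA-seq samples.

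Depth recovered from the values, in units of 1000000 reads, was 43.7 to 67.5 in 5 libraries and 180.9 with DDX3X siRNA, or 2.68 times the depth with control siRNA. DDX3X itself was at 107 RPKM with control siRNA and 31.3 RPKM with DDX3X siRNA, and at 119 RPKM with GFP against 1906 to 3279 RPKM with the constructs. The labels call the cells neuronal. Of 6 neuronal markers, 3 reached 1 RPKM in every library, with NEFL at 109 to 140 RPKM, whereas the dendritic marker MAP2 stayed at or under 0.086 RPKM. Of 6 markers of a kidney epithelial line, 4 (KRT8, KRT18, CDH2 and VIM) reached 1 RPKM in every library. PAX2 stayed at or under 0.693 RPKM, and LHX1 was at 0.901 RPKM with DDX3X siRNA.

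Amino acids cross the plasma membrane through carriers of several solute carrier (SLC) families. Some carriers are exchangers made of a light chain, which forms the transport path, and the heavy chain SLC3A2, which brings the light chain to the cell surface. Others are sodium-coupled and load the cell with neutral amino acids such as glutamine, which exchangers can then trade for essential amino acids. Several of these genes are known targets of ATF4, a transcription factor that is made when amino acids run short and that acts with C/EBP proteins on a shared DNA element.

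All 10 transporters were detected above 1 RPKM in all 6 libraries, and their levels spanned a wide range. By mean RPKM over the libraries, SLC1A5 was highest at 147, followed by SLC3A2 at 112 and SLC7A5 at 73.9. These 3 made up 70.2% to 74.4% of the summed RPKM of the 10 genes. SLC38A2 (41.5 to 46.5 over the libraries) was next, and SLC38A1 (26.6), SLC7A1 (24.1) and SLC43A1 (21.9) were intermediate. SLC6A9 (5.29), SLC7A11 (2.44) and SLC1A4 (2.02) were the lowest, so that the log2 ratios given here, computed on RPKM + 1, understate their changes most.

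**Figure D1:**
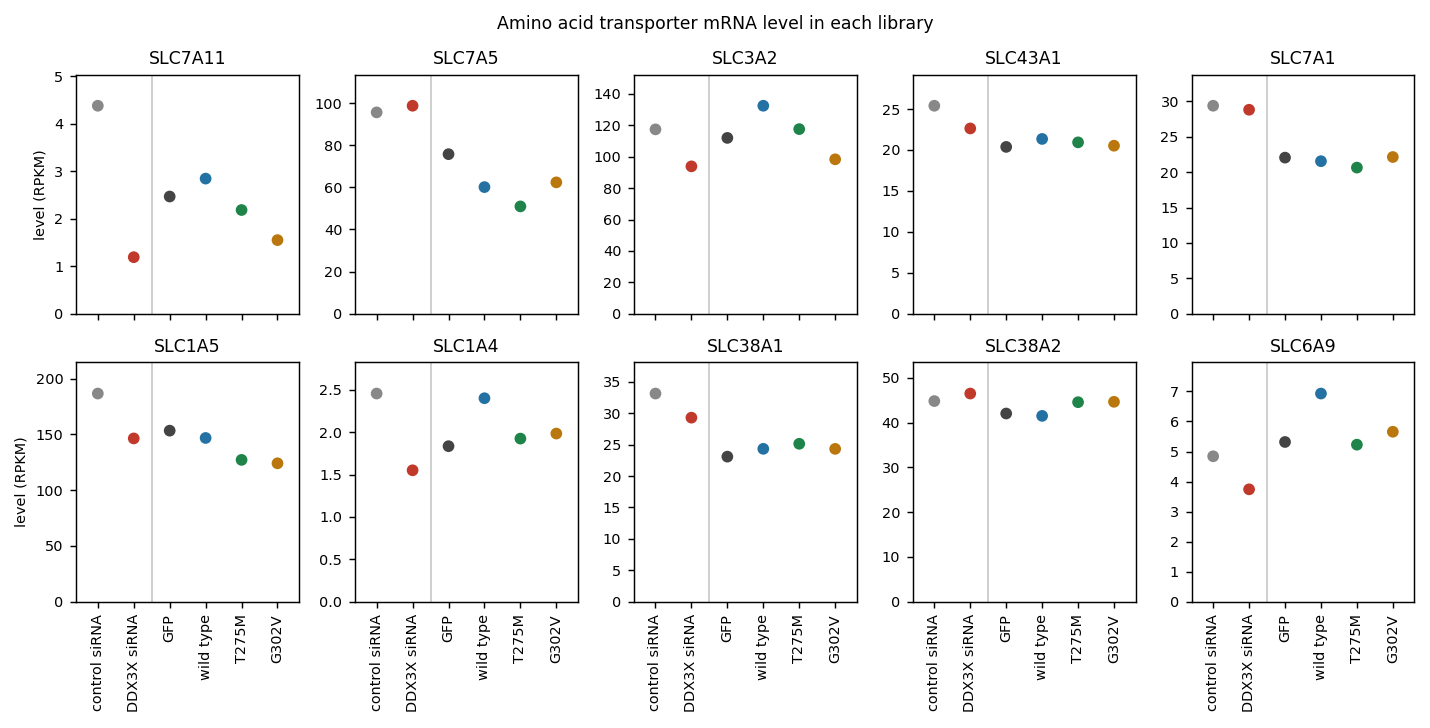
Level of each transporter in RPKM (y axis, from 0, own scale per gene) in the 6 libraries (x axis), 1 point per library, with a grey line between the siRNA and plasmid arms. SLC7A11 was at 4.38 RPKM with control siRNA and 1.19 RPKM with DDX3X siRNA, while SLC38A2 stayed between 41.5 and 46.5 RPKM in all libraries.

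The element on which ATF4 acts was looked for near the transcription starts, since several of these genes are known ATF4 targets. RefSeq promoter windows (GRCh38.p14, 250 bases before to 50 after a start) were matched by symbol for 9 of the 10 genes, in 16 windows, and SLC7A11 had no entry. The letters TGATGNAA, the core of the ATF4 and C/EBP element, were searched on both strands. They were present for 5 of the 9 genes, and over all genes in the table for 4.46% (3.62% of single windows). Known ATF4 targets are among the chosen genes, so the share describes them and is not a test. The 9 genes also have more windows per gene (16 for 9) than all genes (35116 for 27305). The 5 stretches follow, on the strand of the gene, with the match in capitals.
SLC1A4 (chr2:64989381-64989410, plus strand): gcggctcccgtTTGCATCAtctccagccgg
SLC1A5 (chr19:46784893-46784922, minus strand): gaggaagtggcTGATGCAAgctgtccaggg
SLC3A2 (chr11:62881725-62881748, plus strand): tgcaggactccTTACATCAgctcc
SLC38A1 (chr12:46266502-46266531, minus strand): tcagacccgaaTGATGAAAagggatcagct
SLC7A1 (chr13:29595663-29595692, minus strand): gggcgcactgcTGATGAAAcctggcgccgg
The matches in SLC1A4 and SLC3A2 lie on the opposite strand to the gene and therefore read as the reverse complement. In SLC1A4 the match began 7 bases before 1 of its 2 listed starts, and in SLC38A1 4 bases before 1 of 2. In SLC1A5 it began 97 bases before 1 of 3 listed starts. In SLC3A2 it lay 37 bases past 1 of 3 listed starts, and in SLC7A1 7 bases past its 1 listed start. The letters TGACNNNGC, the core of the element bound by NFE2L2 (NRF2), were present for SLC3A2, SLC7A1, SLC7A5 and SLC1A5, and for 16.1% of all genes. These are matches of letters only, and the windows with a match did not include those of SLC38A2, SLC43A1 and SLC6A9.

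To ask how depletion of DDX3X bears on the transporters, DDX3X siRNA was compared with control siRNA. SLC7A11 was the member that differed most. A further 7 genes were lower by smaller amounts, of which SLC1A4, SLC1A5, SLC3A2 and SLC6A9 had 63.1% to 79.9% of their control level. SLC7A5 and SLC38A2 were the 2 genes that were slightly higher. The median log2 ratio of the 10 genes was -0.24, against -0.02 for all 12694 genes tested.

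SLC7A11 (chromosome 4 of GRCh37, 139085251 to 139163503, minus strand) encodes the light chain of the exchanger that takes up cystine in return for glutamate, the source of cysteine for glutathione. Its 2852 reads with control siRNA correspond to 4.38 RPKM, and its 2079 reads in the deeper DDX3X siRNA library to 1.19 RPKM, which is 27.2% of control. On the log2 scale this is a ratio of -1.30, with a 95% interval from counting error of -1.35 to -1.24, the third lowest of the 12694 genes. On this scale, of RPKM + 1, it was the 1 member of 10 lower by 1.5-fold or more, where 0.961% of all genes were. SLC1A4, at 63.1% of its control RPKM, stayed inside the threshold on this scale. SLC7A11 was also the 1 member lower by 2-fold or more, where 0.0630% were. No member was higher by 1.5-fold, against 1.04% of all genes. The members were chosen with earlier results of these data known, so these shares describe them and are not a test. The call of SLC7A11 was lost with a pseudocount of 10, at -0.361, and its row does not pass a minimum of 10 RPKM.

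SLC3A2 (chromosome 11, 62623476 to 62656352, plus strand), the heavy chain that SLC7A11 and SLC7A5 share, was at 117 RPKM with control siRNA and 93.8 RPKM with DDX3X siRNA, a log2 ratio of -0.32 (-0.35 to -0.29). SLC7A5 (chromosome 16, 87863629 to 87903113, minus strand), the light chain LAT1 for leucine and other large neutral amino acids, was at 95.6 and 98.7 RPKM, a log2 ratio of 0.05 (0.03 to 0.07). The heavy chain and its light chains therefore did not differ in parallel. Within a library, where the scaling between libraries cancels, SLC7A5 mRNA per SLC3A2 mRNA was 0.814 with control siRNA and 1.05 with DDX3X siRNA. SLC7A11 mRNA per SLC3A2 mRNA was 0.0373 and 0.0127.

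**Figure D2:**
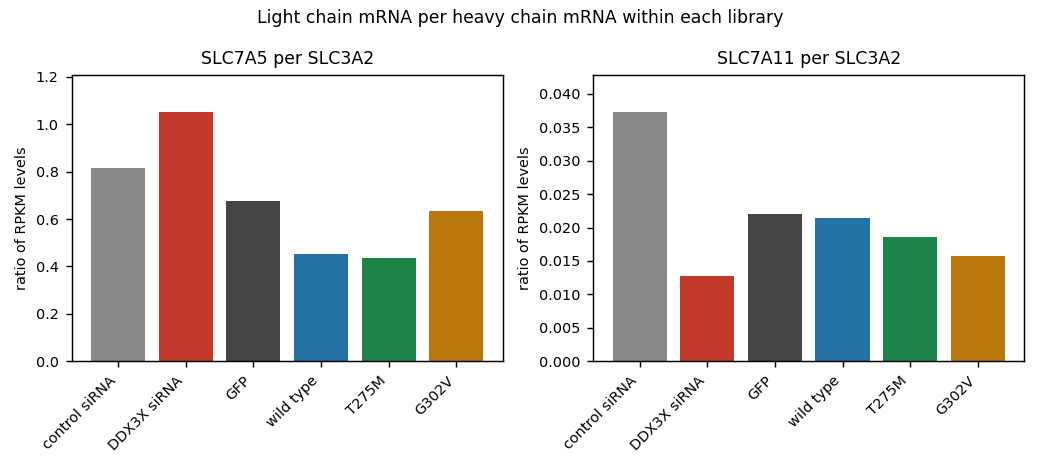
Ratio of the RPKM of the light chains SLC7A5 (left) and SLC7A11 (right) to that of the heavy chain SLC3A2 in each library (y axis, from 0). With DDX3X siRNA the SLC7A5 ratio was higher than in control (1.05 against 0.814) and the SLC7A11 ratio lower (0.0127 against 0.0373), and the SLC7A5 ratio was lowest with wild type and T275M.

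The 2 SLC1 carriers were both lower. SLC1A5 (chromosome 19, 47278140 to 47291851, minus strand), the sodium-dependent exchanger ASCT2 that imports glutamine, was at 187 RPKM with control siRNA and 146 RPKM with DDX3X siRNA, a log2 ratio of -0.35 (-0.37 to -0.33). SLC1A4 (chromosome 2, 65215611 to 65250999, plus strand), the related carrier ASCT1 for alanine, serine, cysteine and threonine, was at 2.46 and 1.55 RPKM. Its log2 ratio was -0.44 (-0.53 to -0.35), and it passed 1.5-fold with a pseudocount of 0.1 and with CPM (reads per 1000000, without length), at -0.631 and -0.597. SLC6A9 (chromosome 1, 44457172 to 44497139, minus strand), the glycine transporter GlyT1, was at 4.84 and 3.74 RPKM, a log2 ratio of -0.30 (-0.39 to -0.21).

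The sodium-coupled neutral carriers SLC38A1 and SLC38A2, which lie near each other on chromosome 12 and both import glutamine and small neutral amino acids, differed in opposite directions. SLC38A1 (46576846 to 46663800, minus strand) was at 33.2 RPKM with control siRNA and 29.3 RPKM with DDX3X siRNA, a log2 ratio of -0.17 (-0.20 to -0.15). SLC38A2 (46751971 to 46766556, minus strand) was at 44.8 and 46.5 RPKM, a log2 ratio of 0.05 (0.03 to 0.08). SLC43A1 (chromosome 11, 57252007 to 57283253, minus strand), the facilitative carrier LAT3 for branched-chain amino acids, was at 25.4 and 22.6 RPKM, a log2 ratio of -0.16 (-0.21 to -0.11). SLC7A1 (chromosome 13, 30083551 to 30169825, minus strand), the arginine and lysine carrier CAT1, was at 29.4 and 28.8 RPKM, a log2 ratio of -0.03 that turned to 0.0518 under median-ratio scaling.

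**Figure D3:**
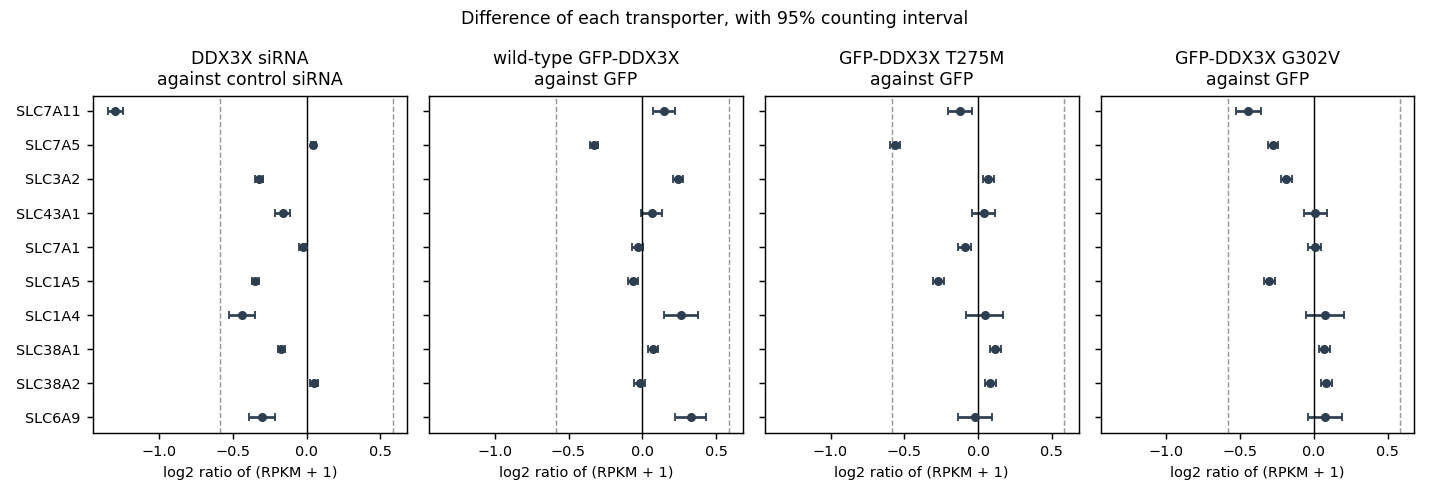
Log2 ratio of RPKM + 1 (x axis) of each transporter (y axis) in 4 comparisons, with bars for the 95% counting interval and dashed lines at 1.5-fold. With DDX3X siRNA, SLC7A11 at -1.30 is past the line, and with T275M, SLC7A5 at -0.56 lies just inside it.

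In all 10 genes the counting interval of this comparison left out 0, as it did in 72.9% of all genes, since depth was high. These intervals cover counting error only, and with 1 library per group the spread between cultures is not known.

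Ectopic DDX3X was then compared with GFP alone. On the scale of RPKM + 1, no member was past 1.5-fold in either direction with any construct. Among all genes, 0.248% were lower by 1.5-fold or more in the wild-type library, 0.395% in the T275M library and 0.767% in the G302V library, and 1.97%, 2.25% and 1.00% were higher. The 3 comparisons share the GFP library. The median log2 ratio of the 10 genes was 0.07 for wild type and 0.01 for each mutant, against 0.05, 0.07 and 0.03 for all genes. Median-ratio scaling, which shifts all genes of a library alike, moved the medians of the members to -0.0304, -0.0804 and -0.0328 and those of all genes to -0.0372, -0.0178 and -0.0120.

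SLC7A5 was lower than GFP with every construct. It was at 75.7 RPKM with GFP against 62.4 with G302V, 60.1 with wild type and 51.0 with T275M. The log2 ratio to GFP was -0.33 (-0.36 to -0.30) for wild type and -0.28 (-0.31 to -0.24) for G302V, and reached -0.56 (-0.60 to -0.53) for T275M. These placed it at 182 from the lowest of 12915 genes for wild type, 657 of 12775 for G302V and 60 of 12912 for T275M. With T275M it stood just inside the threshold, which is 0.58 on the log2 scale, and passed it under median-ratio scaling at -0.66. The pseudogene rows SLC7A5P1 and SLC7A5P2 were at 0.841 to 3.14 RPKM in all libraries, and how the authors' alignment divided reads between the copies was not stated.

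SLC3A2 showed another order. It was at 112 RPKM with GFP, 132 with wild type, and 118 and 98.3 with T275M and G302V, so that it was higher than GFP with wild type (log2 ratio 0.24, 0.21 to 0.27) and lower with G302V (-0.19, -0.23 to -0.15). The value with T275M, 0.07 (0.03 to 0.11), turned to -0.0282 under median-ratio scaling. Per SLC3A2 mRNA, SLC7A5 mRNA was 0.677 with GFP and 0.634 with G302V, but 0.454 with wild type and 0.434 with T275M. The ratio was thus below GFP with all constructs, and nearest to it with G302V.

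SLC1A5 was also lower with every construct. It was at 153 RPKM with GFP, 147 with wild type, and 127 and 124 with T275M and G302V. The log2 ratios were -0.06 (-0.09 to -0.03), -0.27 (-0.30 to -0.23) and -0.30 (-0.34 to -0.27). Both mutants therefore stood further from GFP than wild type did, and T275M and G302V could not be separated from each other by counting error (T275M higher by 0.04, interval -0.00492 to 0.0750).

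SLC7A11 was at 2.47 RPKM with GFP, 2.85 with wild type, and 2.18 and 1.55 with T275M and G302V (654 to 1722 reads). Its level was above GFP with wild type (0.15, 0.07 to 0.22) and below it with T275M (-0.12, -0.21 to -0.04) and G302V (-0.44, -0.53 to -0.35). With G302V it had 62.8% of the GFP level and was the 155th lowest of 12775 genes. It passed 1.5-fold there with a pseudocount of 0.1 and with CPM, at -0.638 and -0.636.

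SLC6A9 and SLC1A4 were higher with wild type than with GFP or either mutant. SLC6A9 was at 5.32 RPKM with GFP, 6.93 with wild type, and 5.23 and 5.66 with T275M and G302V, and its ratio to GFP with wild type was 0.33 (0.22 to 0.43). SLC1A4 was at 1.83, 2.40, 1.92 and 1.98 RPKM in the same order, with a ratio of 0.26 (0.15 to 0.38) for wild type. For both genes, the interval of each mutant against GFP held 0.

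The other 4 genes were nearly level over the plasmid arm. SLC38A2 was at 42.0 RPKM with GFP, 41.5 with wild type, and 44.5 and 44.6 with T275M and G302V. SLC38A1 was at 23.1, 24.3, 25.2 and 24.3 RPKM in that order. SLC7A1 was at 22.0, 21.5, 20.6 and 22.1 RPKM, and SLC43A1 at 20.4, 21.3, 20.9 and 20.5 RPKM. None of the 12 log2 ratios of these 4 genes to GFP was beyond -0.09 or 0.12, and for SLC43A1 every interval held 0. The intervals of SLC38A1 lay above 0 with every construct, and those of SLC38A2 with T275M and G302V. That of SLC7A1 lay below 0 with T275M. Under median-ratio scaling SLC43A1 turned from higher to lower with every construct, SLC38A1 with wild type, SLC38A2 with T275M and SLC7A1 with G302V.

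**Figure D4:**
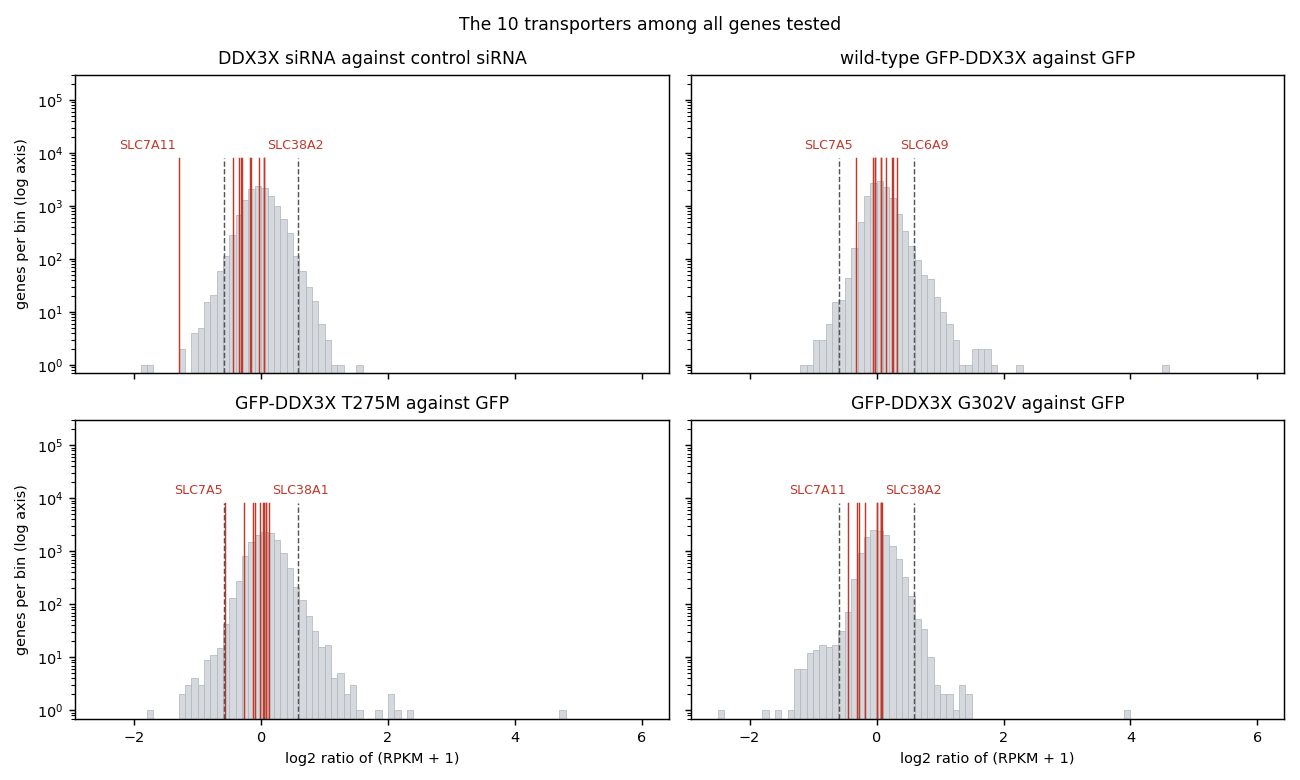
Number of genes per bin of 0.1 (y axis, log scale) against log2 ratio of RPKM + 1 (x axis) for all genes tested in 4 comparisons, with a red line for each of the 10 transporters, the lowest and highest named, and dashed lines at 1.5-fold. SLC7A11 at -1.30 with DDX3X siRNA lies at the lower edge of the distribution, whereas with the constructs the 10 lines lie within it.

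The mutants were set directly against wild type, which does not use the GFP library. The libraries were not alike in DDX3X mRNA, which was lowest for G302V at 1906 RPKM. It was at 2894 RPKM for wild type and 3279 RPKM for T275M. How far this unequal level, rather than the mutation, bears on the differences between constructs was not tested. Against wild type, SLC7A11 with G302V was the 1 member lower by 1.5-fold, at -0.59 (-0.68 to -0.51), where 1.45% of all genes were lower and 0.308% higher. Median-ratio scaling took it back inside the threshold, at -0.546. SLC3A2 followed at -0.43 (-0.46 to -0.39). With T275M no member passed, where 0.262% of all genes were lower and 0.0848% higher. There SLC6A9 was lowest at -0.35 (-0.46 to -0.24), followed by SLC7A11 at -0.27 (-0.35 to -0.19) and SLC7A5 at -0.23 (-0.27 to -0.20). The medians of the 10 genes were -0.19 with T275M and -0.12 with G302V, against 0.00 and -0.03 for all genes.

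The control libraries of the arms differed in the transporters as well. With GFP, 9 of the 10 genes were lower than with control siRNA, and SLC6A9 was higher (0.11, 0.01 to 0.22). SLC7A11 had 56.4% of its control siRNA level (-0.63, -0.70 to -0.56) and was the 1 member past 1.5-fold, where 1.11% of all genes were lower and 1.22% higher. SLC38A1 was at -0.50 (-0.54 to -0.47) and SLC7A1 at -0.40 (-0.43 to -0.36). The median of the 10 genes was -0.30, against 0.01 for all genes. The difference of SLC38A1 and SLC7A1 between the arms was thus larger than any within them.

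Over all 6 libraries, SLC7A11 varied most, with a highest level 3.67 times its lowest, and SLC38A2 least, at 1.12 times. The level of SLC7A11 was highest with control siRNA, then wild type, GFP, T275M, G302V and DDX3X siRNA, and each neighbouring pair in this order was apart by more than counting error. The same held for SLC7A5, with DDX3X siRNA highest, followed by control siRNA, GFP, G302V, wild type and T275M. Over the 10 genes, 32 of 50 neighbouring pairs (64%) were apart, against 36.6% over the 13127 genes with 1 RPKM and 10 reads in at least 1 library. Counting intervals narrow with the number of reads, so these shares describe precision and are not a result about the transporters. For SLC43A1, SLC1A4, SLC38A2 and SLC6A9, 2 of 5 were.

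The remaining carriers of amino acids were examined as a list of 42 genes, of which 22 stayed under 1 RPKM in all 6 libraries and 20 were tested. With DDX3X siRNA 1 of the 20 was higher by 1.5-fold and 2 were lower, where 1.04% and 0.961% of all genes were. The median log2 ratio of the 20 was 0.12, against -0.02 for all genes. SLC7A2, a further cationic amino acid carrier, was higher at 20.7 against 12.6 RPKM (0.67, 0.63 to 0.71). SLC7A3, also a cationic carrier, was lower at 3.45 against 6.81 RPKM (-0.81, -0.91 to -0.71), and so was the light chain SLC7A8 (LAT2) at 3.40 against 5.90 RPKM (-0.65, -0.73 to -0.56). With the constructs none of the 20 was past 1.5-fold, where 0.248% to 0.767% of all genes were lower and 1.00% to 2.25% higher. The medians of the 20 in the order wild type, T275M, G302V were 0.00, -0.03 and -0.01. Those of all genes were 0.05, 0.07 and 0.03.

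A list of 12 genes held those of the amino acid response and some known to act beside it. Of these 12, 3 were lower by 1.5-fold with DDX3X siRNA and none was higher. Of all genes tested, 0.961% were lower and 1.04% higher. This list was also chosen with earlier results of these data known, so the shares are not a test. The median of the 12 was -0.24, against -0.02 for all genes. The 3 were ATF4 at 453 and 270 RPKM (-0.74, -0.76 to -0.73), ASNS, which makes asparagine, at -1.24, and CHAC1, which degrades glutathione, at -1.86. Against GFP, ATF3 was past 1.5-fold with each construct, at 0.71, 0.94 and 0.66, DDIT3 was higher with wild type (0.75), and CHAC1 was lower with G302V (-0.76). Against wild type, CHAC1 was lower with T275M (-0.68), and CHAC1 (-1.02), ASNS (-0.73) and DDIT3 (-0.59) were lower with G302V. Between the controls, CHAC1 (0.72) and MYC (0.59) were higher with GFP than with control siRNA. The shares of all genes past 1.5-fold in these comparisons are given with the transporters above. Whether the levels of these genes bear on the transporters was not tested.

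**Figure D5:**
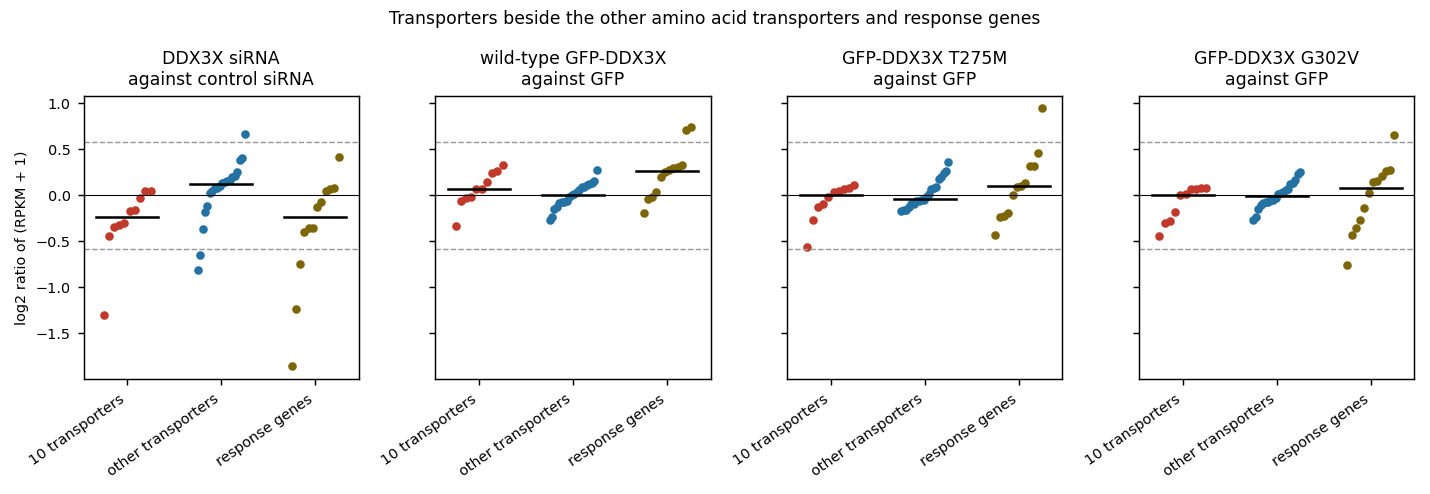
Log2 ratio of RPKM + 1 (y axis) of the 10 transporters, the 20 other amino acid transporters tested and 12 amino acid response genes in 4 comparisons, 1 point per gene with a black bar at the median and dashed lines at 1.5-fold. With DDX3X siRNA the medians were -0.24, 0.12 and -0.24. The 12 response genes include some known to act beside the response.

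The rows of a gene, which share reads, gave nearly the same ratios. Over the 7 comparisons, the widest spread between rows of 1 gene was 0.07, for SLC3A2 with G302V against wild type, where its 5 rows ran from -0.47 to -0.40. The library kit did not keep the strand, so reads cannot be assigned between a gene and a transcript on the other strand. Exons of the other strand overlapped 9.0% of the exonic bases of SLC7A11 (SLC7A11-AS1), 7.9% of those of SLC6A9 (CCDC24), 5.7% of SLC7A5 and 23.4% of SLC1A5 (in both cases a transcript without a name).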

How the data were processed

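RNA of 6 HEK293T samples was sequenced from TruSeq RNA v2 libraries. The authors deposited RPKM values, with 1 row for each RefSeq transcript, while the methods of the study speak of FPKM. Per those methods and the submitters' notes, reads were trimmed with cutadapt, dropped under 21 bases and aligned with BWA 0.5.5 to NCBI Build 37 (hg19), RefSeq, exon junctions and AceView, and duplicates were removed.

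Reads and depth were recovered from the product of RPKM and row length, which is a whole number of reads times a constant of the library (within 0.1 reads for 100% of the low rows checked). Removal of duplicates can lower the levels of highly expressed genes. Whether it did so unequally in the siRNA pair, where depth differed 2.68 times, was not tested. A log2 ratio is the difference of log2(RPKM + 1). Genes with 1 RPKM and 10 reads in at least 1 of both libraries were tested, and called at 1.5-fold. Intervals are exact Clopper-Pearson 95% intervals of the share of reads, carried to the log2 scale. They cover counting error only and treat reads as independent draws, so they are too narrow where reads are not independent molecules. No p-value was computed with 1 library per group.

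All 10 members are named in full. Of the other lists, genes past 1.5-fold were named, and for the most variable member the 3 genes most like it. The members and lists were chosen with earlier results of these data known. No protein sequences were used here. Gene positions are from GENCODE version 44 on GRCh37, the build of the tables, and promoter sequences from RefSeq on GRCh38.p14. Alternatives were pseudocounts of 0.1 and 10, other filters, median-ratio scaling, CPM from recovered reads, summed rows, a 2-fold threshold and a required interval. The calculation was tested on simulated data. Python 3.11.15, numpy 2.4.6, pandas 2.3.3, scipy 1.17.1 and matplotlib 3.10.9 were used.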

Additional observations from a re-analysis of the deposited data

How the results depend on the processing

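Of 112 recomputed counts and medians over the 10 members, 89 stayed near their value as reported (counts within 1.5 times, medians within their counting interval) and 23 did not. With DDX3X siRNA, 1 member was past 1.5-fold. A pseudocount of 0.1 and CPM each gave 2, adding SLC1A4, and a pseudocount of 10 and a minimum of 10 RPKM each gave 0, the latter because SLC7A11 was no longer tested. The median of -0.24 moved to -0.114 with a pseudocount of 10, -0.16 with a minimum of 10 RPKM and -0.165 with median-ratio scaling. That scaling moved the median of all genes as well, from -0.0243 to 0.0483. With wild type the median of 0.07 moved to -0.0178 with a minimum of 10 RPKM and -0.0304 with median-ratio scaling. With T275M, median-ratio scaling gave 1 member (SLC7A5), and with G302V, a pseudocount of 0.1 and CPM gave 1 each (SLC7A11). For T275M against wild type the median moved to -0.0664 with a pseudocount of 10 and -0.0589 with a minimum of 10 RPKM. For G302V against wild type the count went from 1 to 0 with a pseudocount of 10, a minimum of 10 RPKM, median-ratio scaling and 2-fold, and the median to -0.000495 with a minimum of 10 RPKM. For GFP against control siRNA the count went from 1 to 0 with a pseudocount of 10, a minimum of 10 RPKM and 2-fold, and the median to -0.213 with a pseudocount of 10. Of 70 ratios of single members, 11 changed sign under an alternative, in each case median-ratio scaling and none larger than 0.0825 in size. No paired analysis was possible because each group holds 1 library, and for the same reason none was left out.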

Other observations

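SLC7A11, the member whose level varied most over the libraries, was compared with 7561 other genes that reached 10 RPKM in any library. The 3 genes whose log2 level was most like it over the 6 libraries were HNRNPC, an RNA-binding protein of the nucleus (Pearson's r = 0.990), YARS, the cytosolic tyrosyl-tRNA synthetase (0.983), and TERF1, a protein of telomeres (0.981). HNRNPC was at 456 RPKM with control siRNA and 361 RPKM with DDX3X siRNA, and YARS at 133 and 88.1 RPKM. With G302V they were at 380 and 97.0 RPKM, against 404 and 117 RPKM with GFP. With 6 libraries and a search over this many genes, high values of r are a description of these libraries, which share the contrast between the arms.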
